A study of Mus musculus with 9 samples.

Results

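Cytosolic ribosomal proteins form the protein part of the small and the large subunit of the ribosome. Their genes were picked by symbol alone: a probe set was a member when its annotation named 1 gene and that symbol was Rpl or Rps followed by a number, or Rplp0, Rplp1 or Rplp2, with pseudogene symbols ending in -ps and the ribosomal S6 kinases left out. This rule took 80 of the 10476 deposited probe sets, and they name 52 genes, of which 26 belong to the large subunit, 19 to the small subunit, 2 to the stalk of the large subunit (Rplp0 and Rplp1) and 5 have symbols of paralogues (Rpl6l, Rpl7l1, Rpl39l, Rps4l and Rps27l). Each of the 52 symbols matched an entry of RefSeq's annotation of the mouse assembly GRCm38.p6, where 50 are protein coding and Rpl6l and Rps4l are pseudogenes. That table holds 83 protein-coding genes with such symbols. Of these, 50 had a probe set of their own, 17 appeared only in probe sets that name several genes, and 16 were not analysed here.

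The cells were E14 mouse embryonic stem cells grown with serum and with LIF, which keeps such cells pluripotent, and they were exposed over 26 h to DMSO alone or to 5-ITu at 0.1 μM or 1.0 μM. 5-ITu (5-iodotubercidin) resembles adenosine and is used to inhibit Haspin, a kinase of mitotic chromatin. Each condition has 3 arrays (Affymetrix Mouse Gene 2.0 ST), all of 1 cell line. The methods call them biological replicates while the labels give no culture or date, so p-values measure the spread between these arrays, which may be technical in part. Values are log2 signals, and a level of 1 probe set says nothing about its amount relative to another probe set.

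The ribosome decodes mRNA on its small subunit and joins amino acids on its large subunit, and the stalk of the large subunit recruits the translation factors that use GTP. Cells make the ribosomal proteins in matched amounts, and in mammals their mRNAs begin with a C and a run of pyrimidines, the terminal oligopyrimidine tract, through which mTOR and the binding protein Larp1 control their translation. Some free ribosomal proteins, among them Rpl5 and Rpl11, bind Mdm2, the ubiquitin ligase that degrades p53.

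Of the member genes, 40 had a start sequence in the RefSeq table of GRCm38.p6. A C followed by at least 4 bases that are C or T, beginning within 10 bases of the annotated start on the transcribed strand, was found in 24 of them (60.0%), against 34.4% of the 27025 genes in that table. The other strand and other motifs were not searched. Of the 8 genes that were lower at 1.0 μM than in DMSO, 5 had a start sequence and 4 of these held a tract, while 19 of the 32 other tested genes with a start sequence held one. The following stretches hold the 10 bases before and the 20 bases from the annotated start, 5′ to 3′, with the longest such tract in capitals. They are shown for fallen genes with a tract (Rps12, Rps19, Rps24 and Rpl22), for a fallen gene without one in this window (Rps3), and for Rps6 and Rpl41, whose probe sets are among the brightest and were not called. Genes with several annotated starts have a line for each. A tract counted here can lie before the annotated start. The capitals of Rpl22 lie wholly before it, and a run of equal length after it stayed in lower case.
Rps12 (chr10:23787190-23787219, minus strand): tcatgcggccaccgccggCCTTTTCCCCTg
Rps19 (chr7:24884582-24884611, plus strand): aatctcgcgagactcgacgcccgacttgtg
Rps19 (chr7:24884666-24884695, plus strand): cggtgagtgagggctctgggtcgcggctgt
Rps19 (chr7:24884903-24884932, plus strand): agcggggtgtggagggCTCTCCCacgcggt
Rps24 (chr14:24490668-24490697, plus strand): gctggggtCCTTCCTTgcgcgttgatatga
Rps24 (chr14:24490743-24490772, plus strand): cgccgtagccatcatggtgagtctcctcgg
Rpl22 (chr4:152324426-152324455, plus strand): CTTCTggaatgttccagctcccactgacag
Rpl22 (chr4:152325716-152325745, plus strand): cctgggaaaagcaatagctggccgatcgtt
Rps3 (chr7:99483690-99483719, minus strand): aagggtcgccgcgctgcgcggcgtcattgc
Rps6 (chr4:86857348-86857377, minus strand): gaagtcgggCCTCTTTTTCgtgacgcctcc
Rpl41 (chr10:128549149-128549178, minus strand): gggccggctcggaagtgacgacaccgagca

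A probe set was tested when it lay over the background threshold (8.46 on the log2 scale) on at least 3 of the 9 arrays, which held for 9911 probe sets and for 73 of the 80 members, naming 48 genes. Of the members, 65 lay over it on all 9 arrays, and none entered through 1 group alone. The 3 conditions shared 1 limma fit, and a probe set was called at an adjusted p under 0.05 over all 9911. Arrays were alike in their median signal (9.71 to 9.75) and in the number of probe sets over the threshold (9469 to 9780). The median SD of the tested members was 0.076 in DMSO, 0.032 at 0.1 μM and 0.046 at 1.0 μM. DMSO replicate 2 was the lowest of the DMSO arrays for 51 of the 73 members (69.9%), against 37.0% of all tested probe sets. Of 9 stem cell markers, 8 had a probe set and 7 or 8 of these lay over background on each array, and the calls of the DMSO comparison at 1.0 μM were a rise of Klf4 and falls of Tdgf1 and Utf1. The 2 of 5 macrophage markers measured, Cd68 and Laptm5, rose at both doses, with summed log2 signals of 19.47 to 19.82 in DMSO, 20.58 to 20.91 at 0.1 μM and 20.86 to 20.94 at 1.0 μM. Of 6 fibroblast markers, Thy1 and Vim were measured (sums of 20.33 to 20.47 in DMSO, 20.80 to 21.02 at 0.1 μM and 20.61 to 20.79 at 1.0 μM), and Thy1 rose at 0.1 μM. The 4 markers of primitive endoderm were not analysed here. The part of these cells or genes in the ribosomal protein results was not tested.

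At 0.1 μM 5-ITu no ribosomal protein gene passed the test. By limma 0 of the 73 members were called in either direction, where 6.23% of all tested probe sets were, 4.66% upward and 1.56% downward. At an unadjusted p under 0.05, 4 were higher and 2 lower, where this held for 14.5% and 10.6% of all tested probe sets. None of the 73 was past 1.5-fold at that p (background 0.575% higher and 0.131% lower). Changes lay between -0.20 and 0.22 with a median of -0.001, against 0.0015 over all tested probe sets. All 0.1 μM arrays lay above all DMSO arrays for 9 members and below them for 4, where this held for 17.8% and 15.8% of all tested probe sets. The smallest unadjusted p among the increases belonged to Rps7, a small-subunit protein that can bind Mdm2. Its signals were 10.21, 10.25 and 10.32 at 0.1 μM, against 10.17, 9.89 and 10.12 in DMSO. The groups did not overlap, with DMSO replicate 2 far below the others, and the change of 0.20 (standard error 0.071) had a limma adjusted p of 0.12. No alternative setting called any member at this dose.

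**Figure D1:**
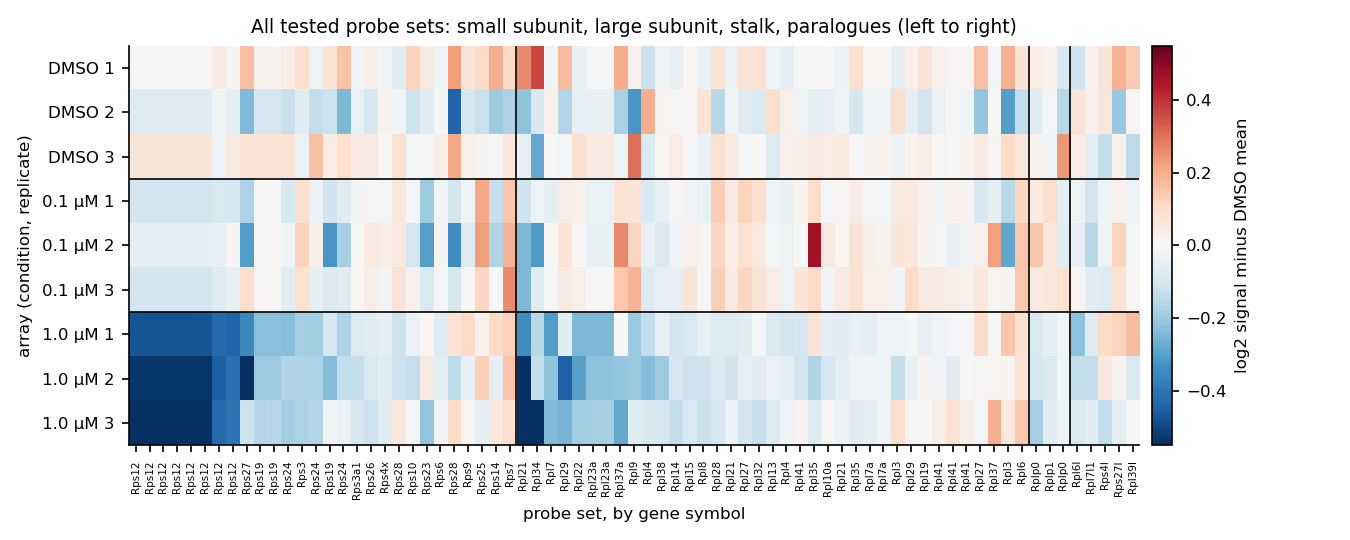
Each column is 1 tested probe set, labelled by gene, and each row 1 array (DMSO, 0.1 μM and 1.0 μM, 3 replicates each). Colour is the log2 signal minus the mean of the DMSO arrays of that probe set, and columns run from the lowest to the highest change at 1.0 μM within the small subunit, the large subunit, the stalk and the paralogues. The 8 Rps12 columns are dark blue on all 3 arrays at 1.0 μM, and most other columns stay pale.

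At 1.0 μM 5-ITu a few ribosomal protein genes fell and none rose. Against DMSO, 17 of the 73 probe sets were lower (23.3%) and 56 were not called, where 14.3% of all tested probe sets were lower and 13.4% higher. The 17 name 8 genes of 48 (16.7%): Rps12, Rps3, Rps19 and Rps24 of the small subunit and Rpl7, Rpl21, Rpl22 and Rpl23a of the large subunit. Rps12 alone accounts for 8 of the probe sets, and 6 of those are near-identical. With probe sets of a gene whose values differed by under 0.05 on every array counted once, a choice made after seeing the data, 10 of 66 were lower (15.2%), close to the share of all tested probe sets. The median change of the members was -0.072, against -0.0056 over all tested probe sets. Of the 73, 59 had a negative and 14 a positive change. At an unadjusted p under 0.05, 26 were lower and 0 higher, where this held for 21.2% and 19.3% of all tested probe sets. With near-identical ones counted once the 26 were 19 of 66 (28.8%). No change reached 1.5-fold at that p (background 1.92% lower and 1.05% higher). All 1.0 μM arrays lay below all DMSO arrays for 27 members and above them for 1, the dim probe set of Rpl6, where this held for 20% and 18.6% of all tested probe sets. The 27 count the 6 near-identical probe sets of Rps12 and those of Rpl23a and Rps19 separately. In bulk RNA, fewer cells of a type and less RNA per cell cannot be told apart.

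Most of the fallen probe sets belonged to the small subunit. Of its 28 tested probe sets, 12 were lower (42.9%, 4 of 16 genes), with a median change of -0.147. Of the 37 of the large subunit, 5 were lower (13.5%, 4 of 25 genes), with a median of -0.062. Of all tested probe sets, 14.3% were lower. With near-identical probe sets counted once, the shares were 27.3% of 22 on the small subunit and 11.1% of 36 on the large subunit. None of the 3 of the stalk (median -0.064) or the 5 of the paralogues (median 0.011) was called. Rps12 supplies 8 of the 12 on the small subunit, and without it 4 of 20 were lower there, with a median of -0.076, close to that of the large subunit. The 4 still count the near-identical probe sets of Rps19 separately. The difference between the subunits was not tested.

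**Figure D2:**
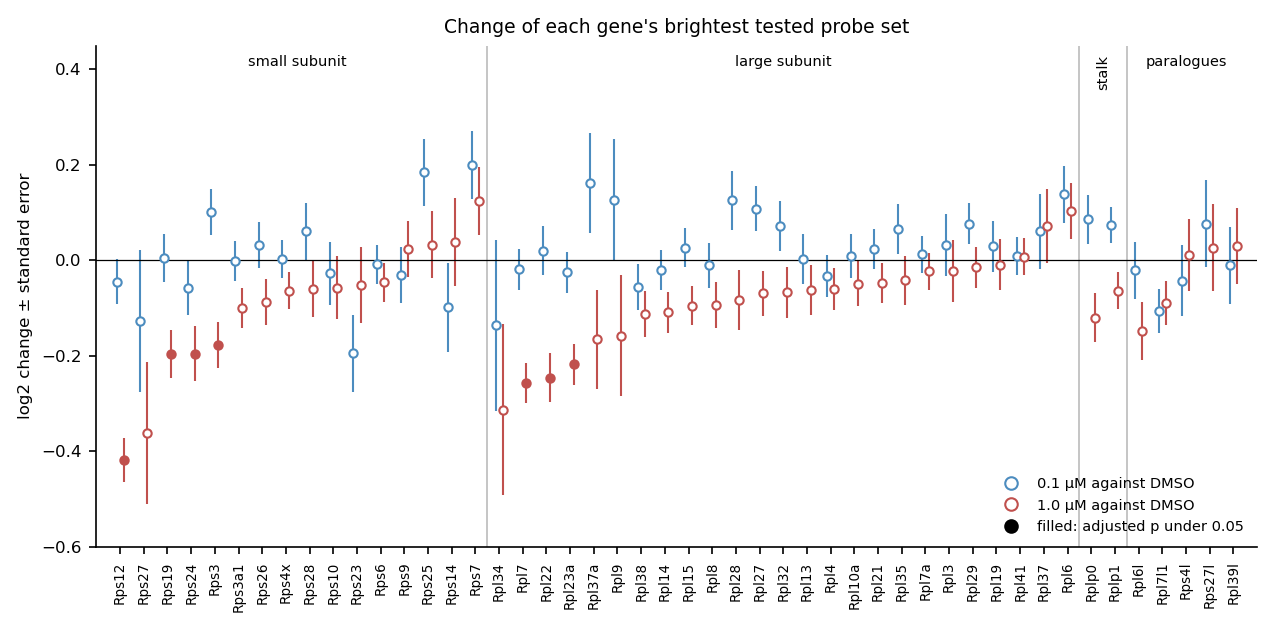
The log2 change against DMSO (points) with its standard error (bars) is plotted for the brightest tested probe set of each of the 48 genes, with 0.1 μM in blue and 1.0 μM in red, grouped by subunit and ordered by the change at 1.0 μM. Filled points passed an adjusted p under 0.05 in limma. Rps12 has the lowest value at 1.0 μM, -0.42, and no blue point is filled.

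Rps12, a protein of the small subunit whose fly counterpart takes part in competition between cells, was the member with the most called probe sets. Its probe set 17239744 gave 12.21, 12.15 and 12.25 in DMSO, 12.11, 12.21 and 12.16 at 0.1 μM, and 11.77, 11.80 and 11.80 at 1.0 μM. All arrays at 1.0 μM lay below every other array, while DMSO and 0.1 μM overlapped. The change at 1.0 μM was -0.42 (standard error 0.047, limma adjusted p = 0.00033), which is 0.749 times the DMSO level, and that at 0.1 μM was -0.04 (limma adjusted p = 0.60). Probe set 17544333, 1 of the 6 near-identical ones, gave 11.93, 11.86 and 11.996 in DMSO, 11.83, 11.88 and 11.83 at 0.1 μM, and 11.46, 11.39 and 11.37 at 1.0 μM. The same order held there, and the 6 changed by -0.52 at 1.0 μM, to 0.695 or 0.696 of the DMSO level (standard error 0.049 or 0.050, limma adjusted p = 0.00016). Probe set 17360842 gave 11.74, 11.67 and 11.67 in DMSO, 11.61, 11.65 and 11.63 at 0.1 μM, and 11.27, 11.24 and 11.27 at 1.0 μM. Its lowest DMSO array lay above its highest array at 0.1 μM, yet the change at 0.1 μM was only -0.06 (limma adjusted p = 0.37), against -0.43 at 1.0 μM (limma adjusted p = 0.00016). All 8 probe sets of Rps12 were also lower at 1.0 μM than at 0.1 μM, with changes of -0.37 to -0.44, and kept both calls under each of the 17 or 18 alternatives they entered. A further probe set that names Rps12 together with 9 other symbols, most of them Rps12 pseudogenes, changed by -0.41 (limma adjusted p = 0.0030). How far pseudogene transcripts enter these signals was not tested.

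**Figure D3:**
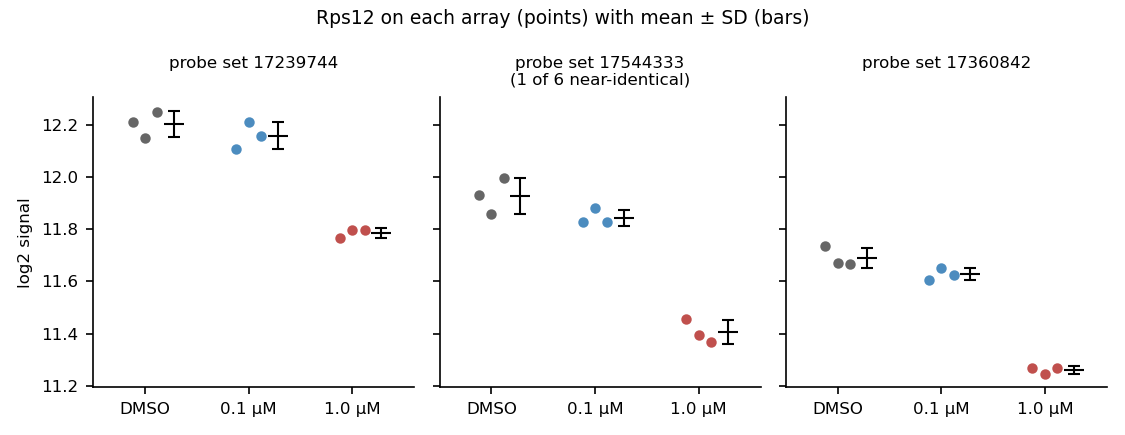
Log2 signal of Rps12 on each array (points) with the mean ± SD of the 3 arrays (bars) for its 3 different profiles, with DMSO, 0.1 μM and 1.0 μM from left to right. In each panel the 3 arrays at 1.0 μM sit below all other arrays.

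The other fallen genes of the small subunit changed by less. Rps3, which lies where mRNA enters the ribosome, gave 12.12, 11.97 and 11.998 in DMSO, 12.12, 12.16 and 12.12 at 0.1 μM, and 11.85, 11.86 and 11.86 at 1.0 μM. The arrays at 1.0 μM lay below all others and were tightly grouped, and the change against DMSO was -0.18 (standard error 0.048, limma adjusted p = 0.023). Rps19, the gene most often mutated in Diamond-Blackfan anaemia in people, has 2 near-identical probe sets, and 17299847 gave 12.05, 11.94 and 12.11 in DMSO, 12.04, 12.04 and 12.04 at 0.1 μM, and 11.81, 11.84 and 11.88 at 1.0 μM. Here too no array at 1.0 μM reached the others, with a change of -0.20 (standard error 0.051, limma adjusted p = 0.019). Another, dim probe set of Rps19, over background on 3 of 9 arrays, changed by -0.12 with overlapping groups and was not called. Rps24, also mutated in that anaemia, was called on 1 of its 3 probe sets, 17547521, with 11.19, 11.03 and 11.23 in DMSO, 11.06, 11.13 and 11.09 at 0.1 μM, and 10.91, 10.98 and 10.96 at 1.0 μM. The highest array at 1.0 μM was close to DMSO replicate 2, and the change was -0.20 (standard error 0.057, limma adjusted p = 0.031). The other probe sets of Rps24 changed by -0.18 (groups apart) and -0.11 (groups overlapping) and were not called.

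These calls were less secure than that of Rps12. Without 1.0 μM replicate 1 or 2, the limma adjusted p of Rps3 was 0.057 or 0.060 and that of Rps19 0.055 in either case, and without DMSO replicate 3 that of Rps19 was 0.065. With only DMSO and 1.0 μM in the fit they were 0.077 and 0.067. Rps24 lost its call in 10 of 18 alternatives, with limma adjusted p = 0.051 to 0.10 where 1 array was left out (DMSO replicate 1 or 3, 0.1 μM replicate 1 or 3, or any array at 1.0 μM).

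On the large subunit, Rpl7, Rpl22 and Rpl23a fell and kept their calls under each of the 17 or 18 alternatives tried. Rpl7, an RNA-binding protein of this subunit, gave 11.55, 11.60 and 11.57 in DMSO, 11.52, 11.57 and 11.56 at 0.1 μM, and 11.26, 11.35 and 11.33 at 1.0 μM. DMSO and 0.1 μM were interleaved and all arrays at 1.0 μM lay below them, with a change of -0.26 (standard error 0.042, limma adjusted p = 0.0023). Rpl22, whose loss in mice mainly affects the development of T cells, gave 9.39, 9.38 and 9.52 in DMSO, 9.46, 9.43 and 9.46 at 0.1 μM, and 9.18, 9.13 and 9.24 at 1.0 μM. Its arrays at 1.0 μM were again the lowest, and it changed by -0.245 (standard error 0.051, limma adjusted p = 0.0072). Rpl23a, a protein at the exit of the peptide tunnel, has 2 near-identical probe sets, and 17243456 gave 11.998, 11.97 and 12.06 in DMSO, 11.97, 11.97 and 12.01 at 0.1 μM, and 11.76, 11.78 and 11.83 at 1.0 μM. The groups were arranged in the same way, with a change of -0.22 (standard error 0.043, limma adjusted p = 0.0057).

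Rpl21, the fourth large-subunit gene, was called on its dimmest probe set only. That probe set (17444792) gave 9.82, 9.34 and 9.52 in DMSO, 9.45, 9.31 and 9.31 at 0.1 μM, and 9.22, 8.996 and 8.99 at 1.0 μM. The DMSO arrays spread widely, all arrays at 1.0 μM lay below them, and the change was -0.49 (standard error 0.11, limma adjusted p = 0.011). Its brighter probe sets, with mean signals of 13.38 and 13.48, changed by -0.07 (95% interval -0.17 to 0.03) and -0.05 (-0.14 to 0.05). Without DMSO replicate 2 the dim probe set was past 1.5-fold, at -0.60, the only member to reach this in any alternative, and with the unmoderated one-way test of the methods its adjusted p was 0.051.

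**Figure D4:**
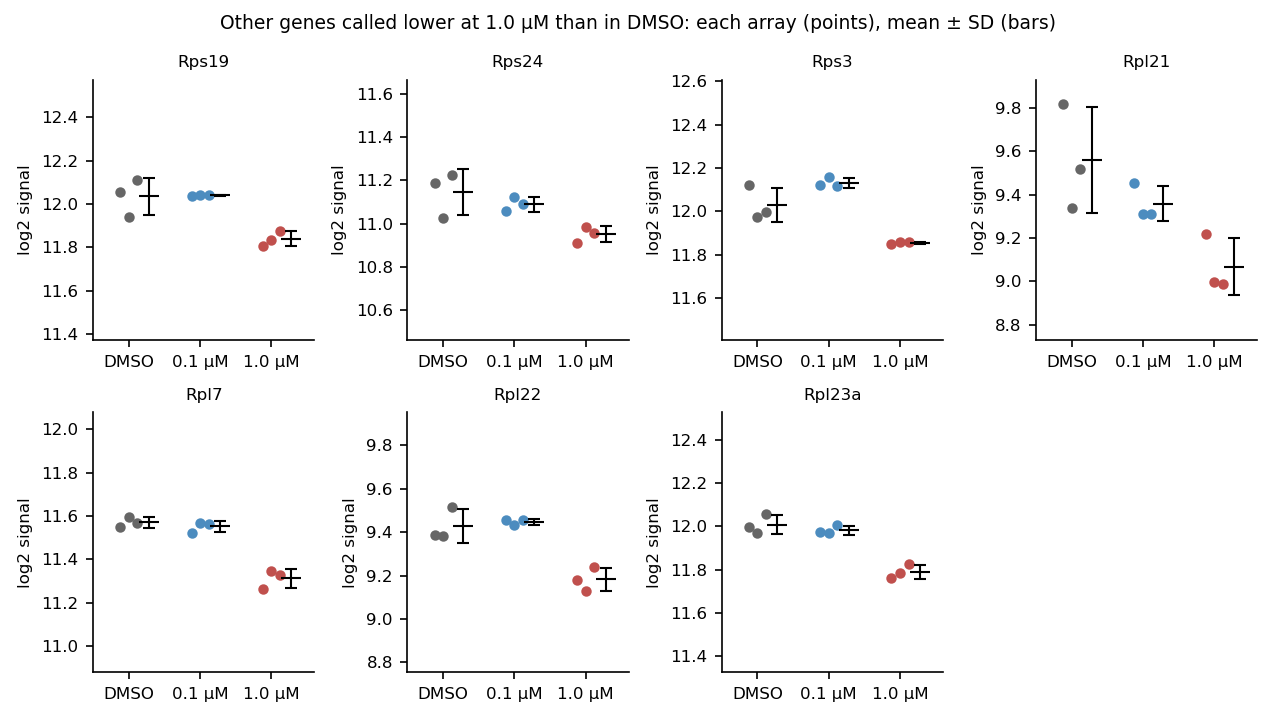
Log2 signal on each array (points) with the mean ± SD of the 3 arrays (bars) for 1 called probe set of each of the other 7 genes lower at 1.0 μM than in DMSO, with DMSO, 0.1 μM and 1.0 μM from left to right. Vertical axes differ in level and span the same width. In all 7 panels the arrays at 1.0 μM lie below those in DMSO.

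The direct comparison of the doses called more genes. At 1.0 μM, 22 probe sets of 13 genes were lower than at 0.1 μM (30.1% of probe sets, 27.1% of genes) and 0 were higher, where 17.4% of all tested probe sets were lower and 12.3% higher. With near-identical probe sets counted once these were 15 of 66 (22.7%). The median change was -0.099, against -0.0046 over all tested probe sets, and all arrays at 1.0 μM lay below all arrays at 0.1 μM for 41 members and above them for 0 (28.1% and 23.6% of all tested probe sets). The 41 count the near-identical probe sets of Rps12, Rpl23a and Rps19 separately. No change reached 1.5-fold at an unadjusted p under 0.05 (background 2.26% lower and 0.605% higher). Both comparisons use the 1.0 μM arrays. Rps12, Rps3, Rps19, Rpl7, Rpl22 and Rpl23a were called in each of them, and Rpl21 and Rps24 against DMSO only. Rpl15, Rpl27, Rpl28, Rpl29, Rpl37a, Rplp0 and Rplp1 were, on probe sets of their own, called against 0.1 μM only.

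These 7 genes had higher means at 0.1 μM than in DMSO, by 0.03 to 0.16 on the log2 scale, none of which passed the test. Rplp0, which anchors the stalk and is widely used as a reference gene, gave 12.10, 12.09 and 12.01 at 1.0 μM, against 12.24, 12.34 and 12.24 at 0.1 μM and 12.23, 12.13 and 12.21 in DMSO. It was lower at 1.0 μM than at 0.1 μM, with a change of -0.21 (standard error 0.051, limma adjusted p = 0.015), while its change of -0.12 from DMSO was not called although the groups did not overlap. Its partner Rplp1 gave 12.50, 12.47 and 12.49 at 1.0 μM, against 12.65, 12.61 and 12.61 at 0.1 μM and 12.57, 12.55 and 12.54 in DMSO, the 3 conditions standing apart, with a change of -0.14 from 0.1 μM (standard error 0.039, limma adjusted p = 0.025). Rpl27 changed by -0.18 (standard error 0.047, limma adjusted p = 0.020) and Rpl28 by -0.21 (standard error 0.062, limma adjusted p = 0.033). Rpl37a, a zinc-binding protein, changed by -0.33 on a dim probe set (mean signal 8.95). Rpl29, which binds heparin, changed by -0.30 on its dim probe set, and Rpl15, also mutated in Diamond-Blackfan anaemia, by -0.12. These last 3 had limma adjusted p of 0.041, 0.050 and 0.049. A brighter probe set that names Rpl37a together with Mir682 (mean signal 12.85) changed by -0.19 from 0.1 μM (limma adjusted p = 0.0079).

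The number of members lower than at 0.1 μM rested on all arrays of that dose, and was 14 without replicate 1, 2 or 3 of it. Each of those omissions ended the calls of Rps19 (limma adjusted p = 0.051 to 0.057), Rplp1 (0.066 to 0.10), Rpl28 (0.078 to 0.096), Rpl29 (0.11 to 0.13), Rpl37a (0.063 to 0.14) and Rpl15 (0.075 to 0.18). Rplp0 lost its call without replicate 2 (limma adjusted p = 0.065) and Rpl27 without replicate 1 or 3 (0.074 and 0.072). Leaving out an array at 1.0 μM ended the calls of Rps19 (replicate 1, limma adjusted p = 0.053), Rplp1 (replicate 1 or 2, 0.053 and 0.074), Rpl37a (replicate 2 or 3, 0.12 and 0.11), Rpl29 (replicate 2 or 3, 0.16 and 0.094), Rpl28 (any, 0.067 to 0.078) and Rpl15 (any, 0.067 to 0.13). Without DMSO replicate 3 the limma adjusted p was 0.055 for Rpl37a, 0.066 for Rpl29 and 0.062 for Rpl15. Other settings also ended calls. Quantile normalization gave limma adjusted p of 0.24 for Rpl15, 0.083 for Rplp1, 0.056 for Rpl37a and 0.053 for Rpl29, and the change of Rpl15 was then -0.07. Without moderation (the one-way test of the methods) the adjusted p was 0.064 for Rpl28, 0.11 for Rpl37a and 0.12 for Rpl29. Without a filter the limma adjusted p was 0.051 for Rpl15 and 0.052 for Rpl29, and Rpl15 had 0.059 after median centring, 0.068 under the replicate block and 0.050, just over the threshold, with 1 probe set per gene. The calls of Rps12, Rps3, Rpl7, Rpl22 and Rpl23a in this comparison were kept under each alternative. Over the 3 groups together, 19 member probe sets of 10 genes differed by limma's moderated F, where 35.3% of all tested probe sets did, and 29 did so without DMSO replicate 2.

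Of the 48 tested genes, 33 were called in no comparison on a probe set of their own, 12 of the small subunit, 16 of the large subunit and the 5 paralogues. Their 41 probe sets changed by -0.36 to 0.12 at 1.0 μM and by -0.20 to 0.22 at 0.1 μM. The lowest values at 1.0 μM were those of Rps27 (-0.36, standard error 0.15) and Rpl34 (-0.31, standard error 0.18), both on dim probe sets (mean signals of 8.48 and 8.53) with overlapping groups. Rps6, the substrate of S6 kinase and the brightest member, gave 13.64, 13.66 and 13.71 in DMSO, 13.64, 13.68 and 13.66 at 0.1 μM, and 13.60, 13.62 and 13.65 at 1.0 μM. The groups overlapped, and the change of -0.05 at 1.0 μM had a 95% interval of -0.14 to 0.05. Rpl41, whose product is the shortest of the ribosomal proteins, has 4 tested probe sets with mean signals of 13.22 to 13.56, and they changed by -0.06 to 0.01 at 1.0 μM and by 0.00 to 0.03 at 0.1 μM. The probe set of Rpl5, the partner of 5S ribosomal RNA, lay over background on 1 of 9 arrays and was not tested, and Rpl11 and Rplp2 had no probe set of their own.

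No paralogue passed the test at either dose. Rpl7l1, a paralogue of Rpl7, gave 10.49, 10.49 and 10.42 in DMSO, 10.36, 10.31 and 10.41 at 0.1 μM, and 10.40, 10.33 and 10.40 at 1.0 μM. Both doses lay below DMSO on every array, and its change at 1.0 μM of -0.09 (95% interval -0.19 to 0.01) stands beside -0.26 for Rpl7. Rps4l changed by 0.01 (-0.16 to 0.18), beside -0.06 (-0.15 to 0.02) for the X-linked Rps4x. Rps27l, in mouse and human a target of p53, changed by 0.03 (-0.18 to 0.23), beside -0.36 for the dim probe set of Rps27, whose groups overlapped (limma adjusted p = 0.099). A brighter probe set that names Rps27 together with Rps27rt (mean signal 10.69) was called lower. It changed by -0.32 from DMSO (limma adjusted p = 0.037) and by -0.41 from 0.1 μM (limma adjusted p = 0.013). Rpl39l, expressed mainly in male germ cells, changed by 0.03 (-0.15 to 0.21). Rpl6l, annotated as a pseudogene, changed by -0.15 (mean signal 12.09, limma adjusted p = 0.095). Rpl6 changed by 0.10 on a dim probe set (mean signal 8.92, limma adjusted p = 0.22).

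Where a gene had several probe sets, they often differed. Of the 14 genes with several, Rps12, Rps19 and Rpl23a held the near-identical ones. Rps19, Rps24, Rpl21, Rpl27, Rpl29 and Rplp0 had called probe sets beside others that were not called. The brightest probe set of Rpl29, with a mean signal of 13.46, changed by -0.09 from 0.1 μM (limma adjusted p = 0.13), against -0.30 on the dim one. With the brightest probe set per gene, 7 of 48 genes were lower at 1.0 μM than in DMSO and 11 of 48 lower than at 0.1 μM. In the main fit, 14.3% and 17.4% of all tested probe sets were lower in these comparisons.

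Ribosomal protein probe sets crowd the top of the signal range, where an array's response can flatten. The highest signal of each array was 13.84 to 13.89. Mean signals of the members ran from 8.07 to 13.65 with a median of 11.73, against a median of 9.72 for all deposited probe sets, and members made up 8 of the 50 and 15 of the 100 highest means. Within 1 log2 unit of the highest signal (over 12.89) lay 18 of the 73 tested members (24.7%), against 1.34% of all tested probe sets.

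Members near that ceiling changed least. At 1.0 μM none of these 18 was lower than in DMSO by the test, their changes ran from -0.10 to 0.01, and their median was -0.047. Between 1 and 2 units below the ceiling, 6 of 18 were lower (33.3%, median -0.110), and further below, 11 of 37 (29.7%, median -0.119). The other probe sets in these ranges had 3 of 115 lower within 1 unit (2.61%, median -0.015), 13.1% of 542 in the next (median -0.024) and 14.5% of 9181 further below (median -0.003), so calls were few near the ceiling for other genes too. The spread between replicates was also smallest there, with a median pooled SD of 0.034 for the members within 1 unit and 0.101 for those over 2 units below. Against 0.1 μM, Rpl28 and Rpl15 were the 2 called within 1 unit of the ceiling, and neither kept its call under all alternatives: Rpl28 had an adjusted p of 0.064 without moderation and Rpl15 a limma adjusted p of 0.24 after quantile normalization. After quantile normalization of the arrays the median of the 18 was -0.016. How far flattening reduced these changes was not tested. Without the 18, the median change of the other members at 1.0 μM was -0.114.

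**Figure D5:**
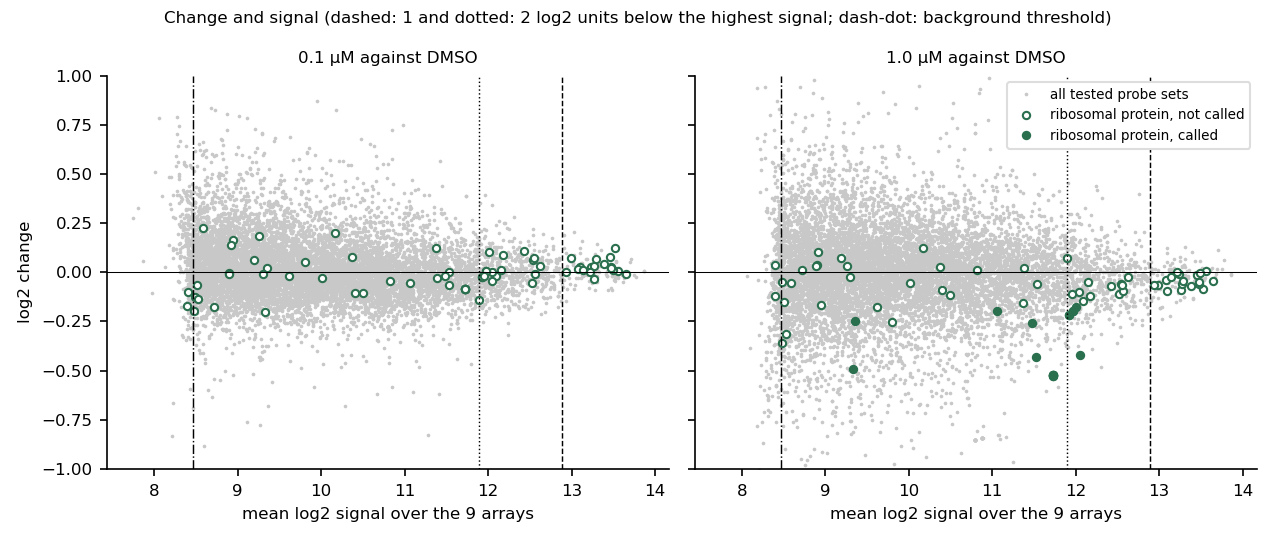
The log2 change against DMSO is plotted over the mean log2 signal of the 9 arrays for all tested probe sets (grey) and the ribosomal protein probe sets (green, filled where called), at 0.1 μM on the left and 1.0 μM on the right. Lines mark the background threshold and the distances of 1 and 2 log2 units below the highest signal, and 30 probe sets with a change over 1 lie outside the axis. To the right of the dashed line at 12.89 all green points lie close to 0 and none is filled.

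Dim members were less certain. Of the tested members, 8 were not over background on all 9 arrays. The 7 untested ones were the only probe sets of Rps20, Rps15, Rps18 and Rpl5 and 1 each of Rpl35, Rpl41 and Rpl7a, with 1 or 2 arrays over the threshold. Rps20, Rps15 and Rpl5 had the lowest mean signals, 8.07, 8.17 and 8.26. Without a filter, the dim probe sets of Rpl7a and Rpl35 were higher at 1.0 μM than at 0.1 μM (0.37, limma adjusted p = 0.018, and 0.40, limma adjusted p = 0.0069), and so was that of Rpl7a when the arrays were centred on their medians or quantile normalized. The bright probe sets of these genes changed by -0.11 to -0.04 from 0.1 μM, and another dim one of Rpl35 by -0.28 (limma adjusted p = 0.060).

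Outside the rule, 48 tested probe sets name a ribosomal protein gene together with other genes. Of these, 0 were called at 0.1 μM by limma. At 1.0 μM 11 were lower (22.9%, against 14.3% of all tested probe sets) and 1 higher than in DMSO, with a median of -0.120. Against 0.1 μM, 15 were lower (31.2%, against 17.4% of all tested probe sets) and 0 higher. Several of them name the same genes, and these shares were not tested. They can carry signal from pseudogenes, host transcripts or small nucleolar RNAs that share the probes. Examples at 1.0 μM against DMSO are Rps13 with a pseudogene (-0.30, limma adjusted p = 0.0052) and Rpl23a with pseudogene loci (-0.20, limma adjusted p = 0.0088). A second probe set with the same Rps13 symbols changed by -0.06 (limma adjusted p = 0.8), and that of Rps13 with Snord14a by -0.13 (limma adjusted p = 0.63). The 1 that was higher names Rpl30 with numbered loci (0.45, limma adjusted p = 0.048). Another naming Rpl30 and numbered loci changed by -0.37 (limma adjusted p = 0.061). A further 7 probe sets name pseudogenes of the family and no gene of the rule, and that of Rplp2-ps1 also names Wdr89. Of these 7, 2 were lower at 1.0 μM than in DMSO (28.6%) and 3 lower than at 0.1 μM (42.9%).

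Other genes of the pathway were counted from lists chosen for this purpose, beside the 27.7% of all tested probe sets that were called between 1.0 μM and DMSO. The first list holds transcripts known in mammals for a terminal oligopyrimidine tract, which was not searched for here. Of its 18 tested members, among them the elongation factor genes Eef1a1 and Eef2 and the noncoding Snhg1, 0 were called in any comparison by limma. At 1.0 μM their changes against DMSO had a median of -0.035 and a range of -0.13 to 0.11, and 2 were lower and 0 higher at an unadjusted p under 0.05. The smallest unadjusted p among them at this dose, 0.023, was that of Tpt1 (-0.13, limma adjusted p = 0.071). Rpsa and Fau, which encode ribosomal proteins under other symbols, changed by -0.09 each and were not called. Of 12 assembly factors, 0 were called by limma and 0 were past an unadjusted p under 0.05 against DMSO at 1.0 μM, with a range of -0.11 to 0.15. Of 10 kinases, binders and regulators, 2 were called against DMSO at 1.0 μM. Mdm2 rose at 1.0 μM to 11.36 ± 0.055, against 11.03 ± 0.15 in DMSO (SD, n = 3 each), a change of 0.33 (standard error 0.072, limma adjusted p = 0.0081). Mtor, the kinase that controls these mRNAs, fell to 10.18 ± 0.022 at 1.0 μM, against 10.45 ± 0.11 in DMSO (SD, n = 3 each), a change of -0.27 (standard error 0.056, limma adjusted p = 0.0075). Larp1, Eif4ebp1, Myc and Mycn were not called.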

How the data were processed

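RNA of DMSO cells and of cells at either dose of 5-ITu was measured on 9 Affymetrix Mouse Gene 2.0 ST arrays, 3 per condition, and groups were taken from the labels. The authors deposited log2 signals per probe set after RMA, that is, after background correction, quantile normalization and summarization of probes, and these were used as given. RMA evens out the arrays, so a shift shared by most genes would not be seen, and signals near the top of the range may be compressed. Depth is not a property of arrays, and the 3 arrays per group limit the precision.

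Probe sets over log2 8.46 on at least 3 of 9 arrays were tested with limma 3.58.1 in R 4.3.3 (lmFit and eBayes on 3 group means, Benjamini-Hochberg adjustment over all 9911), and the moderated F covered the 3 groups. Standard errors and 95% intervals come from this fit, which was tested on simulated data. Genes were named by the symbol that the platform annotation gives a probe set, and values of a gene's probe sets were not averaged. The rule for named genes took every member called in a comparison, the 4 with the highest and the 4 with the lowest mean signal, the stalk proteins, Rpl5, Rpl11, Rps6, Rpl41, the paralogues with their partners and, from the other lists, the genes called and up to 4 more. Rps7, Rps23, Rpl6, Rpl7a and Rpl34 were named after their values were seen. The members and gene lists were chosen with earlier results of these data known. Alternatives were the filter, the 2 groups compared alone, quantile normalization, median centring, trend and robust settings, the methods' one-way test without moderation, 1 probe set per gene, the replicate number as a block, leaving out the members near the ceiling and leaving out each array. Counting near-identical probe sets once was added after seeing the data. Promoter windows and gene types came from RefSeq tables of GRCm38.p6, used by symbol.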

Additional observations from a re-analysis of the deposited data

Results flagged for a closer look

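Ribosomal protein genes whose response differed between the doses were picked out by the direct comparison of 1.0 μM with 0.1 μM, in which both changes share the DMSO arrays and that control cancels. For Rps12 the change at 1.0 μM minus the change at 0.1 μM was -0.44 on each of 6 near-identical probe sets and -0.37 on each of the other 2. On the small subunit it was also -0.28 for Rps3 and -0.20 on each of 2 near-identical probe sets of Rps19. On the large subunit it was -0.24 for Rpl7, -0.27 for Rpl22 and -0.19 on each of 2 near-identical probe sets of Rpl23a. These 6 genes were also lower than in DMSO at 1.0 μM.

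The other differences were -0.33 for the dim probe set of Rpl37a, -0.30 for the dim probe set of Rpl29, -0.21 for Rpl28, -0.18 for Rpl27, -0.12 for Rpl15, -0.21 for Rplp0 and -0.14 for Rplp1. None of these 7 passed the test against DMSO at either dose on a probe set of its own. Probe sets shared with other symbols varied at 1.0 μM against DMSO. That of Rpl37a with Mir682 changed by -0.13 (limma adjusted p = 0.043) and that of Rpl28 with Gm10051 by -0.45 (limma adjusted p = 0.012). That of Rpl15 with Gm10224 changed by 0.14 (limma adjusted p = 0.11). All 22 differences are negative.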

How the results depend on the processing

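No result reversed. Against the 17 members called between 1.0 μM and DMSO, 22 between the doses and 19 over the 3 groups, 1 probe set per gene gave 7, 11 and 10, and counting near-identical probe sets once, chosen after seeing the data, gave 10, 15 and 12. Fewer probe sets entered these counts, and the share called fell too. With near-identical ones counted once, 15.2% of 66 were lower than in DMSO at 1.0 μM, against 23.3% of 73. Of all tested probe sets, 14.3% were lower. Rps12 alone held 8 of the 17. Leaving out 1 array gave 13 to 24 between 1.0 μM and DMSO, 14 to 27 between the doses and 13 to 29 over the 3 groups. The highest count of each was without DMSO replicate 2, and 0 to 0 were called between 0.1 μM and DMSO. Members past 1.5-fold at 1.0 μM numbered 0 to 1. The median change at 1.0 μM ran from -0.099 to -0.065 and that near the ceiling from -0.056 to -0.035. Quantile normalization gave medians of -0.054 and -0.016. With the replicate number as a block the counts were 0 between 0.1 μM and DMSO, then 19, 23 and 21. Same-numbered arrays did not all deviate together (correlations of -0.023 to 0.51). Between 1.0 μM and DMSO their correlations were 0.51, 0.067 and 0.437, against -0.444 to 0.118 for arrays of different numbers. The main fit took the numbers as names only, and whether they mark pairs was not tested. Members were called higher only between the doses, and only for Rps23 without 1.0 μM replicate 3 (0.23, limma adjusted p = 0.039) and for the dim probe sets of Rpl7a and Rpl35 under quantile normalization, median centring or no filter. Of 682 values of single probe sets under alternatives, 607 kept their side of the threshold and 75 did not, all with the same sign.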
